A study of Mus musculus with 8 samples.

Results

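The genes described here encode the nuclear subunits of the mitochondrial respiratory chain and ATP synthase, grouped by the complex they belong to. They were chosen by name: every gene whose platform symbol begins with Ndufa, Ndufb, Ndufc, Ndufs, Ndufv, Uqcr, Cox4 to Cox8 or Atp5, together with Sdha, Sdhb, Sdhc and Sdhd, was taken. Ndufa4, Ndufa4l2, Cox4i2 and the assembly factors named Ndufaf were left out, only probe sets naming 1 gene were used, and the probe set with the highest mean stood for each gene. This gave 79 of the 19936 genes tested: 34 of complex I, 4 of complex II, 8 of complex III, 16 of complex IV and 17 of complex V. Cox7c, Ndufb4, Ndufb4b and the pseudogene Ndufs5-ps match the names but share their probe sets with another gene, and are not members. The rule itself uses no expression value. The subunits encoded by mitochondrial DNA were not analysed here.

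Whole-kidney RNA of female mice of a mixed C57BL/6 and SV127 background was measured on 8 Affymetrix arrays, and every value is on the log2 scale of the deposited table. The labels call 4 arrays mutant, from Pax8-rtTA;LC-1;Vhl-floxed mice, in which doxycycline switches on Cre recombinase in tubule epithelium. They call the other 4 control, from littermates whose own alleles the labels do not list. Both groups drank doxycycline (0.2 mg/ml, with 5% sucrose) for 2 weeks from 3 weeks of age, then plain water for 1 week, and the mice were 6 weeks old at harvest. Whole kidney also holds cells that the Pax8 promoter does not reach, so a change in tubule cells is diluted, and a lower share of a cell type cannot be told apart from less RNA per cell.

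The check of the labels has to come before any direction. VHL marks the hypoxia-inducible factors (HIF) for destruction, so HIF target genes are known to be high where it is lost. Egln3, a HIF target, was 7.81-fold lower in the labelled mutant arrays (8.80, 8.69, 9.15 and 8.65, against 11.69, 11.60, 12.05 and 11.82 on the labelled control arrays; log2 values; limma adjusted p = 2.15e-06). Vhl itself was 1.22-fold higher there (8.34 ± 0.0909 against 8.05 ± 0.118, SD, n = 4 each; limma adjusted p = 0.0387), and which part of the transcript its probe set covers is not given in the sources used here. These are the opposite of what the labels say. Directions are therefore given only between the labelled groups, and none is a direction of Vhl loss.

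Respiratory chain complexes sit in the inner mitochondrial membrane. Complexes I and II pass electrons from NADH and succinate to ubiquinone, complex III passes them to cytochrome c, complex IV to oxygen, and complex V uses the proton gradient so built to make ATP. Kidney tubule cells, above all those of the proximal tubule and thick ascending limb, are packed with mitochondria and draw most of the energy for salt transport from this chain. HIF is known to shift cells away from it, partly by exchanging single subunits.

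The respiratory chain genes differed little between the groups. With limma on all genes and Benjamini-Hochberg adjustment over all of them, 4 of the 79 members passed an adjusted p of 0.05 (5.06%, against 7.23% of all genes). Higher in the labelled mutant arrays were 3 members (3.80%, against 2.59% of all genes): Ndufs8, Sdhb and Uqcrq. Lower was 1 member, Cox6b2 (1.27%, against 4.64%). At an unadjusted p below 0.05 there were 18 members (22.8%, against 21.8% of all genes). The share called moved on both sides of that of all genes with the setting: it was 12.7% against 7.9% after quantile normalization and 13.9% against 11.1% at an adjusted p of 0.1, but 3.8% against 8.31% with the replicate number as a block. Leaving out any 1 array left between 0 and 3 members called. Such a fit has fewer arrays for every gene, and the share of all genes is not set beside this count.

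The differences were small and mostly of one sign. The median log2 difference of the 79 members was 0.05 (0.049), a fold of 1.035, beside 0.025 over all genes, and 63 members (79.7%) lay above 0 where 58.1% of all genes did. Most members are bright, with 77 at or above the median level of all genes. Among the brighter 60% of probe sets 50.8% of all genes lay above 0, with a median of 0.003. That filter kept 13491 genes and does not match the level of the members, whose median was 11.44 against 7.99 for all genes. The part of level in the members' signs was not tested. For 68 members the log2 difference was smaller than 0.2 in size, and for 63 the 95% interval of the difference lay within 0.3 of 0. The median standard error of a member's difference was 0.0529, against 0.0718 for all genes. For 22 members all 4 labelled mutant arrays read above all 4 labelled control arrays (27.8%, against 6.57% of all genes), and for 2 members, Ndufv3 and Cox6b2, they all read below (2.53%, against 8.2%). Of these 24 members without overlap, 20 did not pass the test. The plot of differences by complex shows the narrow band of most members and the few outside it.

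**Figure D1:**
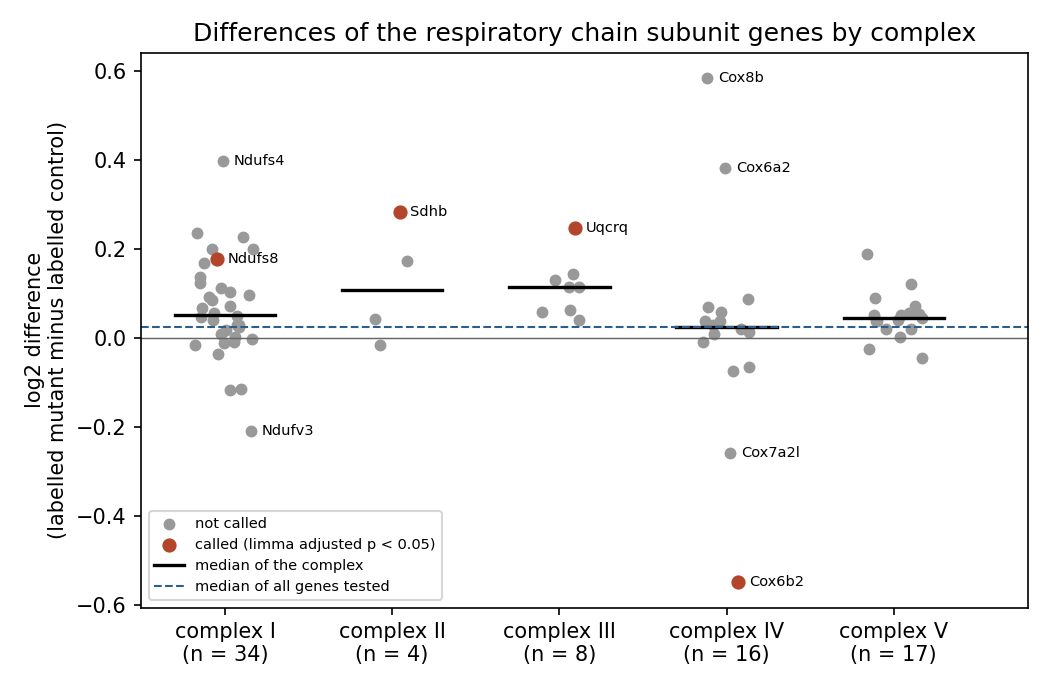
Each point is 1 member, placed by its log2 difference (labelled mutant minus labelled control arrays, vertical axis) in its complex (horizontal axis); black lines are the medians of the complexes, the dashed line is the median of all genes tested (0.025), and filled red points passed limma at an adjusted p of 0.05. Of the 79 points, 68 lie within 0.2 of 0; Cox8b, Ndufs4 and Cox6a2 lie highest without being called, and Cox6b2 lies lowest at -0.55.

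By complex, the medians stood in the order III, II, I, V and IV. Complex III had a median log2 difference of 0.115 and 8 of its 8 members above 0, complex II 0.108 and 3 of 4, complex I 0.05 and 26 of 34, complex V 0.045 and 15 of 17, and complex IV 0.02 and 11 of 16. Members called were 1 of 34 in complex I, 1 of 4 in complex II, 1 of 8 in complex III, 1 of 16 in complex IV and 0 of 17 in complex V, where limma gave 2 at an unadjusted p below 0.05 and the fit blocked by replicate number also called 0. Over all genes, 7.23% passed limma at the same adjusted p of 0.05. Counts of 0 or 1 in groups this small cannot set a complex apart from that share or from the other complexes. No test was made between complexes.

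The mean of a complex's members on each array shows the same sizes beside the spread of the arrays. Complex III averaged 11.462, 11.471, 11.456 and 11.385 on the labelled mutant arrays, against 11.322, 11.321, 11.320 and 11.356 on the labelled control arrays. Complex II averaged 11.870, 11.943, 11.930 and 11.883 on the labelled mutant arrays and 11.815, 11.824, 11.754 and 11.753 on the labelled control arrays. In both, the lowest labelled mutant array lay above the highest labelled control array. Complex I averaged 10.86 ± 0.0492 on the labelled mutant and 10.79 ± 0.0271 on the labelled control arrays, complex V 12.02 ± 0.0232 and 11.98 ± 0.0218, and complex IV 10.61 ± 0.0449 and 10.59 ± 0.0411 (SD, n = 4 each). In these 3 complexes the groups overlapped. Between arrays of the same replicate number, the labelled mutant array was higher in 4 of 4 comparisons for complex I (by 0.029, 0.028, 0.146 and 0.064). It was higher in 4 of 4 for complex V (by 0.052, 0.029, 0.086 and 0.027) and in 2 of 4 for complex IV. Over all genes tested it was higher in 3 of 4 (differences of 0.019, 0.015, 0.002 and -0.014). The replicate numbers are not said to mark litters, so these are not known to be pairs. The mean over all 19936 genes was 8.01 ± 0.0167 on the labelled mutant and 8.01 ± 0.0086 on the labelled control arrays.

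**Figure D2:**
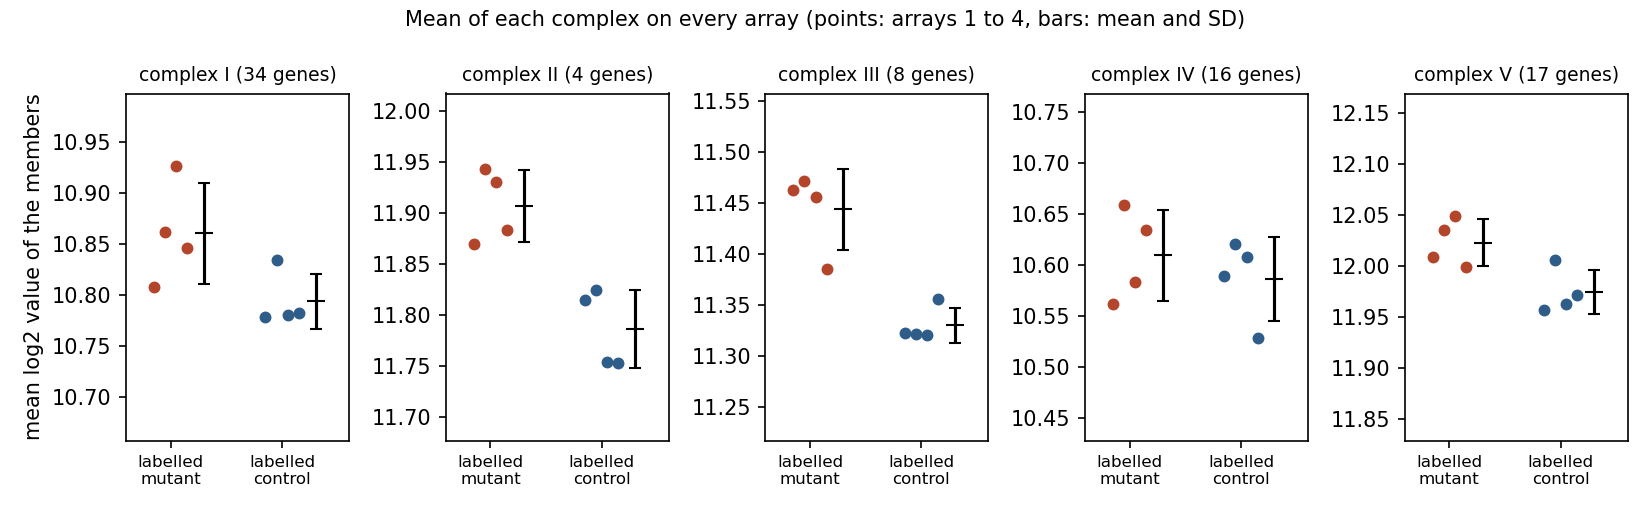
Mean log2 value of each complex's members (vertical axis, the same span in every panel) on the 4 labelled mutant arrays (red, left) and the 4 labelled control arrays (blue, right); points are arrays 1 to 4 from left to right and bars are the mean and SD. The groups lie apart for complexes II and III and overlap for complexes I, IV and V.

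The promoters of members the results turn on are shown to let their likeness and difference be read directly: Ndufs8 and Sdhb, which were higher, as was Uqcrq; Cox6b2, which was lower; Cox6b1, the form of the same subunit made in most tissues; and Ndufs4, the complex I member with the largest difference. Each is the RefSeq window of GRCm38.p6 from 250 bases before to 50 bases after the gene's start, 5′ to 3′ on the gene's strand. Capitals mark every match, on either strand, to one of 6 short motifs: GCGCATG, the core letters of the site of nuclear respiratory factor 1 (NRF1), ACTTCCG for GABP and other ETS factors, AAGATGGC for YY1, AAGGTCA for the oestrogen-related receptors (ERR), CCAAT for NF-Y and ACGTG for HIF. None of the 6 lies within another. The windows are chr19:3912725-3913024 (minus strand) for Ndufs8, chr4:140961021-140961320 (plus strand) for Sdhb, chr7:4753045-4753344 (minus strand) for Cox6b2, chr7:30626065-30626364 (minus strand) for Cox6b1 and chr13:114388045-114388344 (minus strand) for Ndufs4.
Ndufs8: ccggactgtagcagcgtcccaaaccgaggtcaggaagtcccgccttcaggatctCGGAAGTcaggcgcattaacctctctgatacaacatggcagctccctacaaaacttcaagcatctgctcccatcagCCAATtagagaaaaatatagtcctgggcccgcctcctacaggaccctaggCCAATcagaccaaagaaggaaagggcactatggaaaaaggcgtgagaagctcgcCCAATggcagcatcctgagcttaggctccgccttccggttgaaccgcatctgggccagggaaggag
Sdhb: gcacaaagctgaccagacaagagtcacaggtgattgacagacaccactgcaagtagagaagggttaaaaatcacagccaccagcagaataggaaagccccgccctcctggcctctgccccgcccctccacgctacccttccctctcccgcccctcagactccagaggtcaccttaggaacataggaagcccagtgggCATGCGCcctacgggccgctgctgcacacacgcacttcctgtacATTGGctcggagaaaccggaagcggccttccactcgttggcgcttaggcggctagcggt
Cox6b2: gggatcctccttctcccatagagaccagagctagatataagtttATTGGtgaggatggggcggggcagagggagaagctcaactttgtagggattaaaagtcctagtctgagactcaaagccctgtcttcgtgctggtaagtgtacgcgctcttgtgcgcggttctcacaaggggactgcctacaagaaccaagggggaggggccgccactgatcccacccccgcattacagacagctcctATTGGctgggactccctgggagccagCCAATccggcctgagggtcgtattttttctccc
Cox6b1: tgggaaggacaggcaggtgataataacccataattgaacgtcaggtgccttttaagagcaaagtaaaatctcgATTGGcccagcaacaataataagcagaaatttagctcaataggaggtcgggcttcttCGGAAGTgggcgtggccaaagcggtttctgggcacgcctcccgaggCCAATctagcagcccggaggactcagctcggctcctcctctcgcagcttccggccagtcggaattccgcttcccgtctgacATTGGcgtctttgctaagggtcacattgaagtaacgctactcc
Ndufs4: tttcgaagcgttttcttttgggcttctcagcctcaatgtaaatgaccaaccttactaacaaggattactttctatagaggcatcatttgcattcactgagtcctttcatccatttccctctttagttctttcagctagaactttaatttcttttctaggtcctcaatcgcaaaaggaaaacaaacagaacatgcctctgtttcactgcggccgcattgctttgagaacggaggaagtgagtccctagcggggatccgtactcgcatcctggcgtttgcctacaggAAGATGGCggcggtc

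Counting the first transcribed base as 0, matches to the NF-Y motif begin at -120, -70 and -16 in Ndufs8, at -9 in Sdhb, at -206, -9 and 17 in Cox6b2 and at -177, -74 and 7 in Cox6b1. The ETS motif matches at -196 in Ndufs8 and at -120 in Cox6b1, the YY1 motif at 35 in Ndufs4, and the NRF1 core at -53 in Sdhb. The Cox6b forms thus share the NF-Y letters, and of these windows only Ndufs8 and Cox6b1 hold the ETS letters. Across the members, 66 had at least 1 window, 71 windows in all. The YY1 motif was in 14.1% of the members' windows and in 2.75% of all 32851 windows in the RefSeq table, the NRF1 core in 18.3% and 3.91%, the ETS motif in 15.5% and 6.42%, and the ERR motif in 9.86% and 4.72%. The NF-Y motif was in 42.3% and 37.4%, and the HIF motif in 25.4% and 19.6%. The YY1 motif was found in 7 of the 31 complex I members with a window and 3 of 15 of complex V, and in 0 of the 20 of complexes II, III and IV. These are matches of letters, not sites bound by a factor.

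Complex I, the NADH dehydrogenase, is built of core subunits and of accessory subunits around them. Of the 6 nuclear core subunits measured (Ndufs1, Ndufs3, Ndufs7, Ndufs8, Ndufv1 and Ndufv2), all had a difference above 0, with a median of 0.08, and 1 passed the test. Ndufs8, which holds iron-sulphur clusters near the ubiquinone site, read 12.29, 12.30, 12.27 and 12.21 on the labelled mutant arrays, against 12.10, 12.06, 12.08 and 12.12 on the labelled control arrays. The groups did not overlap, and the gene was 1.13-fold higher (log2 difference 0.18 ± 0.0470, SE; 95% interval 0.07 to 0.28; limma adjusted p = 0.0497). This call sat at the threshold: it was lost without any 1 of the 8 arrays (limma adjusted p from 0.0628 to 0.131) and with the replicate number as a block (0.0798).

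Ndufv1, the flavin-binding subunit that takes up electrons from NADH, read 11.76, 11.73, 11.79 and 11.76 on the labelled mutant arrays and 11.63, 11.63, 11.61 and 11.68 on the labelled control arrays, with no overlap. It did not pass (log2 difference 0.12, limma adjusted p = 0.156). Ndufs7, which holds the last iron-sulphur cluster before ubiquinone, also had no overlap, at 13.09 to 13.16 against 13.05 to 13.08, but its log2 difference was only 0.05 (limma adjusted p = 0.565). This difference was close to its limma standard error of 0.0455, while the SDs of Ndufs7 were 0.0295 on the labelled mutant and 0.0183 on the labelled control arrays.

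The accessory subunits held the widest differences of complex I. Ndufs4, whose loss causes Leigh-like disease in mice and people, read 11.73, 12.28, 12.49 and 12.35 on the labelled mutant arrays, against 11.61, 11.87, 11.84 and 11.93 on the labelled control arrays. Labelled mutant array 1 fell within the control range, and the other labelled mutant arrays lay above it. The log2 difference of 0.40 (95% interval 0.07 to 0.73) did not pass (limma adjusted p = 0.151). It passed with the replicate number as a block (0.0380) and without labelled mutant array 1 (log2 difference 0.56, adjusted p = 0.00727), both in limma. Without any other single array its limma adjusted p lay between 0.162 and 0.296.

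Ndufs6, a zinc-binding accessory subunit, read 9.86, 10.37, 10.05 and 10.01 on the labelled mutant arrays and 9.84, 9.92, 9.77 and 9.80 on the labelled control arrays (log2 difference 0.24, limma adjusted p = 0.198). Labelled mutant array 1 again fell within the control range. In the other direction, Ndufv3, a small accessory subunit of the NADH-binding module, read 9.81, 9.95, 9.91 and 9.88 on the labelled mutant arrays, against 10.12, 10.22, 10.07 and 9.99 on the labelled control arrays. All labelled mutant arrays lay below the others, yet the log2 difference of -0.21 did not pass (limma adjusted p = 0.0737; 0.0477 without labelled control array 4). Ndufa12, an accessory subunit of the arm outside the membrane, had a log2 difference of -0.12 with overlapping groups, from 9.08 to 9.39 against 9.26 to 9.45.

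Of the other accessory subunits, none of 13 with Ndufa names and none of 11 with Ndufb or Ndufc names, which lie in the membrane arm, passed the limma test; at an unadjusted p below 0.05 there were 2 in each. These were Ndufa11 and Ndufa5, and Ndufb7 and Ndufb9, named after their values were seen, with log2 differences of 0.23, 0.17, 0.20 and 0.20 and limma adjusted p of 0.0851, 0.0953, 0.0645 and 0.0665. In all 4 the groups did not overlap. Ndufa11 passed without labelled mutant array 1 (limma adjusted p = 0.0346) and Ndufb7 without labelled mutant array 4 (0.0498). The median difference was 0.05 over the Ndufa names and 0.04 over the Ndufb and Ndufc names, beside 0.025 for all genes. Ndufb3 read 8.51 to 8.69 on the labelled mutant and 8.46 to 8.73 on the labelled control arrays.

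Complex II, succinate dehydrogenase, also serves the citric acid cycle and has only nuclear subunits. Sdhb, its iron-sulphur subunit and a tumour suppressor in people, read 11.73, 11.96, 11.80 and 11.72 on the labelled mutant arrays, against 11.64, 11.57, 11.44 and 11.43 on the labelled control arrays. The groups did not overlap, and Sdhb was 1.215-fold higher (log2 difference 0.28 ± 0.0722, SE; 95% interval 0.12 to 0.44; limma adjusted p = 0.0448). Labelled mutant array 2 stood highest. The call was lost without any 1 of the 4 labelled mutant arrays or labelled control arrays 2, 3 or 4 (limma adjusted p from 0.0546 to 0.128), and with array weights (0.0593), and held with the replicate block.

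Sdhd, which anchors the complex in the membrane, read 11.38, 11.49, 11.46 and 11.39 on the labelled mutant arrays and 11.23, 11.34, 11.22 and 11.24 on the labelled control arrays. The groups did not overlap here either, but the log2 difference of 0.17 did not pass (limma adjusted p = 0.0882). The remaining members lay close to 0. Sdha, the flavoprotein that oxidises succinate, read 12.26 ± 0.0214 on the labelled mutant and 12.22 ± 0.0416 on the labelled control arrays, and Sdhc, the other anchor, 12.13 ± 0.0715 and 12.15 ± 0.0183 (SD, n = 4 each). Their 95% intervals were -0.06 to 0.15 for Sdha and -0.13 to 0.10 for Sdhc.

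**Figure D3:**
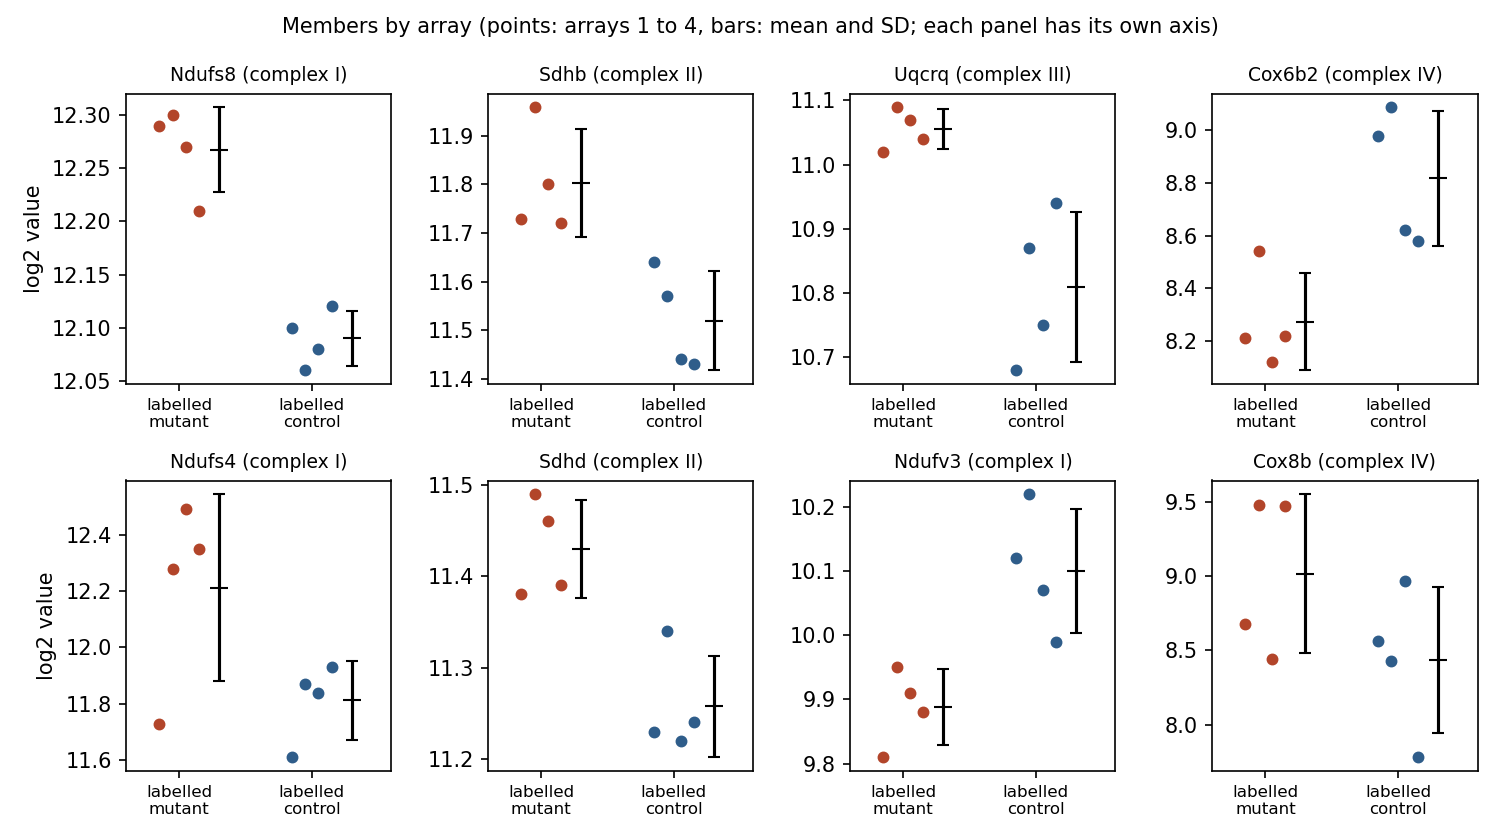
Log2 values (vertical axis, a separate scale in each panel) of 8 members on the labelled mutant arrays (red, left) and labelled control arrays (blue, right); points are arrays 1 to 4 from left to right and bars are the mean and SD. Ndufs8, Sdhb and Uqcrq are higher and Cox6b2 lower with no overlap; Ndufs4 and Cox8b overlap between the groups.

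In complex III, which oxidises ubiquinol, all 8 members had a difference above 0 and 1 passed. Uqcrq, a small subunit that binds next to cytochrome b, read 11.02, 11.09, 11.07 and 11.04 on the labelled mutant arrays, against 10.68, 10.87, 10.75 and 10.94 on the labelled control arrays. It was 1.19-fold higher (log2 difference 0.25 ± 0.0639, SE; 95% interval 0.10 to 0.39; limma adjusted p = 0.0470), and its labelled mutant arrays lay closer together than its labelled control arrays (SD 0.0294 against 0.1166). The call was lost without any 1 of the 4 labelled mutant arrays or labelled control arrays 1, 2 or 3 (limma adjusted p from 0.0691 to 0.131), and narrowly with the replicate block (0.0504).

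The next in size were 3 members without overlap that did not pass. Uqcr10, another small subunit, read 10.82 to 10.94 on the labelled mutant and 10.71 to 10.77 on the labelled control arrays (log2 difference 0.14, limma adjusted p = 0.122). Uqcrh, the hinge protein at the cytochrome c1 contact, and Uqcrc1, a large core protein, had log2 differences of 0.13 and 0.115 (limma adjusted p of 0.235 and 0.177), and were named after their values were seen. Uqcrfs1, the Rieske iron-sulphur protein that hands the electron on, read 9.65 ± 0.0800 on the labelled mutant and 9.54 ± 0.0900 on the labelled control arrays (SD, n = 4 each). Uqcrc2, the other core protein, differed by 0.06, Uqcr11 by 0.06 and Uqcrb by 0.04, all with overlapping groups. Cyc1, the cytochrome c1 gene, which the name rule does not take, differed by 0.05 (limma adjusted p = 0.593).

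Complex IV, cytochrome c oxidase, has several subunits that exist in alternative forms made in different tissues. The 9 subunits of most tissues (Cox4i1, Cox5a, Cox5b, Cox6a1, Cox6b1, Cox6c, Cox7a2, Cox7b and Cox8a) differed by -0.01 to 0.09, and limma called 0 of them, with 0 at an unadjusted p below 0.05 and 0 with the replicate block. Their mean was 12.35 ± 0.0258 on the labelled mutant and 12.32 ± 0.0133 on the labelled control arrays (SD, n = 4 each). Cox8a read 13.05 to 13.07 on the labelled mutant and 12.97 to 13.01 on the labelled control arrays, so that its groups did not overlap at a difference of 0.07. Cox6c had almost the same value on every array, 13.75 to 13.76 on the labelled mutant and 13.71 to 13.78 on the labelled control arrays.

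The tissue forms of complex IV carried its wide differences. Cox6b2, the testis form of the subunit that bridges the dimer, read 8.21, 8.54, 8.12 and 8.22 on the labelled mutant arrays, against 8.98, 9.09, 8.62 and 8.58 on the labelled control arrays. It was 1.46-fold lower (log2 difference -0.55 ± 0.130, SE; 95% interval -0.84 to -0.26; limma adjusted p = 0.0319), with no overlap, although labelled mutant array 2 came close to the nearest labelled control array. The call held with the replicate block, and was lost without labelled mutant array 1, 3 or 4 or labelled control array 1 or 2 (adjusted p in limma between 0.0691 and 0.0894). Cox6b1, its counterpart in most tissues, differed by 0.04 (95% interval -0.11 to 0.19). The other testis forms, Cox7b2 and Cox8c, read 5.21 to 5.31 and 7.47 to 7.6 on the labelled mutant arrays, against 5.25 to 5.44 and 7.48 to 7.53 on the labelled control arrays. Cox7b2 was dim, under each array's lower quartile of 6.21 to 6.28, and differences of dim probe sets are compressed.

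Among the muscle and brown fat forms, Cox8b and Cox6a2 varied widely between arrays of a group. Cox8b read 8.68, 9.48, 8.44 and 9.47 on the labelled mutant arrays and 8.56, 8.43, 8.97 and 7.78 on the labelled control arrays. Labelled mutant arrays 2 and 4 stood high, the groups overlapped, and the log2 difference of 0.58 did not pass (95% interval -0.06 to 1.22; limma adjusted p = 0.272). Cox6a2 read 8.45, 8.69, 9.35 and 9.24 on the labelled mutant arrays and 8.34, 8.59, 8.45 and 8.82 on the labelled control arrays (log2 difference 0.38, limma adjusted p = 0.282). Here labelled mutant arrays 3 and 4 stood high, and the groups overlapped. Cox7a1 differed by -0.07, with labelled control array 3 at 10.62 and the other arrays at 10.31 to 10.39.

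Brown fat and muscle markers were read beside these forms, since both tissues can lie next to a kidney. Of 5 markers (Ckm, Acta1, Myh4, Ucp1 and Cidea) limma called 0, with 0 at an unadjusted p below 0.05, and their mean ran from 6.90 to 7.33 on the labelled mutant and from 6.98 to 7.22 on the labelled control arrays. Ucp1, the brown fat uncoupling protein, read 6.37, 7.26, 6.53 and 8.37 on the labelled mutant arrays and 6.84, 6.65, 7.81 and 7.37 on the labelled control arrays. Within the labelled mutant arrays, numbers 2 and 4 read higher than 1 and 3 for Cox8b and for Ucp1, Cidea and Ckm, but not for Myh4 and Acta1. Among the labelled control arrays, array 3 was highest for Cox8b and for Ucp1, while array 4 was lowest for Cox8b and second highest for Ucp1. The part of such tissue in the values of Cox8b was not tested.

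Cox7a2l is a relative of Cox7a2 that has been linked to supercomplexes of complexes III and IV. It read 9.18, 9.26, 9.13 and 9.34 on the labelled mutant arrays and 9.55, 9.75, 9.37 and 9.26 on the labelled control arrays. Labelled control array 4 fell among the labelled mutant arrays, and the log2 difference of -0.26 did not pass (limma adjusted p = 0.172). The gene's probe sets disagreed in size: the other probe set gave -0.03. Among the 17 members with several probe sets this was the widest gap, at 0.225, and the next was 0.054, in Atp5l. Whether either probe set of Cox7a2l also reads related sequences elsewhere in the genome was not tested, so the value may not be that of Cox7a2l alone.

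**Figure D4:**
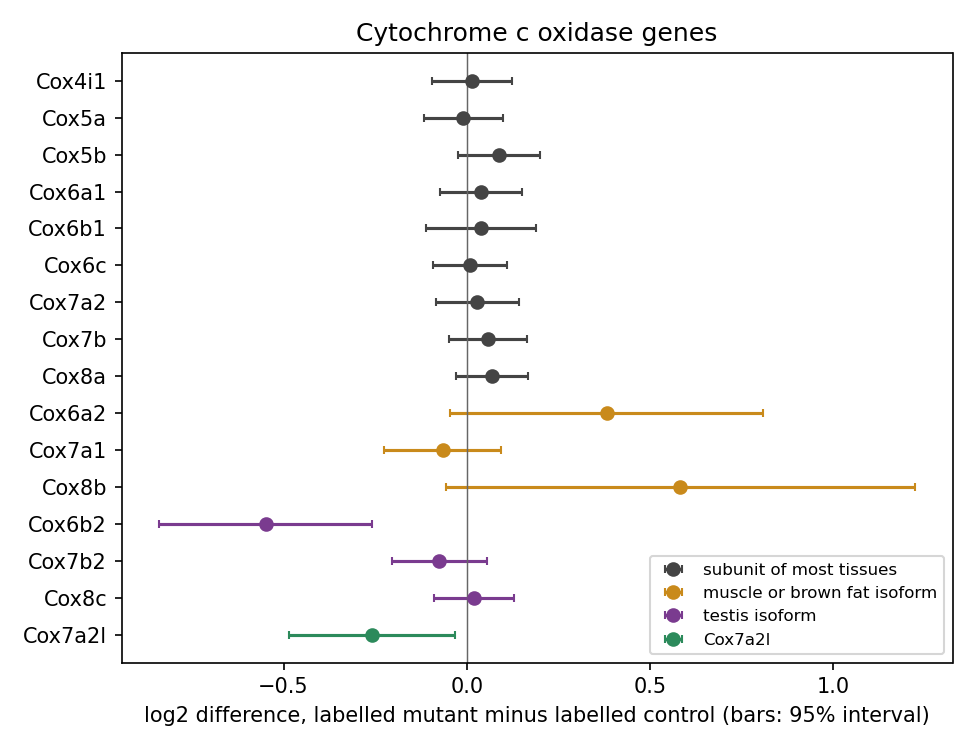
Log2 difference (labelled mutant minus labelled control arrays, horizontal axis) of the 16 complex IV members with its 95% interval, coloured by the tissues in which the form is known to be made. The 9 subunits of most tissues lie between -0.01 and 0.09 with narrow intervals; Cox8b, Cox6a2 and Cox6b2 lie farthest from 0 with wide ones.

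Differences in ATP synthase were small. None of its 17 members passed the limma test, and all 17 differences lay between -0.05 and 0.19 (2 at an unadjusted p below 0.05). The 5 subunits of the catalytic head and central stalk (Atp5a1, Atp5b, Atp5c1, Atp5d and Atp5e) differed by 0.04 to 0.07, and the 4 of the peripheral stalk by 0.00 to 0.09. Atp5d, a central stalk subunit, read 13.66 to 13.72 on the labelled mutant and 13.62 to 13.65 on the labelled control arrays, and Atp5e 9.45 to 9.84 and 9.46 to 9.70. Atp5o, the peripheral stalk subunit that meets the head, had no overlap at a difference of 0.09 (limma adjusted p = 0.315; named after its values were seen).

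The widest differences of complex V were in small membrane subunits. Atp5l, subunit g, which helps to join the enzyme into dimers, read 10.77, 10.82, 10.88 and 10.78 on the labelled mutant arrays, against 10.63, 10.71, 10.58 and 10.58 on the labelled control arrays. The groups did not overlap, and the log2 difference of 0.19 (95% interval 0.07 to 0.31) did not pass (limma adjusted p = 0.0648). It passed after quantile normalization (0.0311), among the brighter 60% of probe sets (0.0377) and with trend and robust (0.0346), all in limma. All 6 probe sets of Atp5l gave a difference of the same sign, from 0.135 to 0.19. RefSeq lists pseudogenes of Atp5l, and whether its probes also read them was not tested. Atp5j2, subunit f, differed by 0.12 (limma adjusted p = 0.227), again without overlap. Atp5mpl, another small membrane protein of the enzyme, differed by -0.025 with overlapping groups.

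The rotating ring of ATP synthase is made of subunit c, which Atp5g1, Atp5g2 and Atp5g3 all encode with different import sequences. Atp5g1 read 13.20, 13.15, 13.14 and 13.15 on the labelled mutant arrays and 13.10, 13.08, 13.10 and 13.14 on the labelled control arrays. Atp5g2 read 12.61, 12.64, 12.61 and 12.62 on the labelled mutant arrays and 12.65, 12.69, 12.68 and 12.64 on the labelled control arrays. Atp5g3 read 12.84, 12.87, 12.71 and 12.70 on the labelled mutant arrays and 12.75, 12.79, 12.69 and 12.69 on the labelled control arrays. The log2 differences were 0.05, -0.045 and 0.05, none passed (limma adjusted p of 0.548, 0.599 and 0.642), and the 95% intervals together ran from -0.145 to 0.18. The groups overlapped in each.

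Of 3 subunit genes left out of the members by name, 2 passed the test. Ndufa4, once placed in complex I and since found in complex IV, read 11.10, 11.13, 11.15 and 11.09 on the labelled mutant arrays, against 10.65, 10.71, 10.39 and 10.59 on the labelled control arrays (log2 difference 0.53, limma adjusted p = 0.00198). It passed under all 17 alternatives run on genes, with log2 differences from 0.47 to 0.57. Ndufa4l2, the hypoxia-induced relative of Ndufa4, was 1.28-fold lower (7.56, 7.5, 7.53 and 7.47 on the labelled mutant arrays, against 8.05, 7.63, 7.87 and 7.92 on the labelled control arrays; log2 difference -0.35, limma adjusted p = 0.0300). Its call was lost without labelled mutant array 2, 3 or 4 or labelled control array 1, 3 or 4 (adjusted p in limma between 0.0587 and 0.0819). Cox4i2, the hypoxia-linked form of Cox4i1, read 7.94 ± 0.0907 on the labelled mutant and 8.15 ± 0.0528 on the labelled control arrays (SD, n = 4 each) without overlap and did not pass (limma adjusted p = 0.0733; 0.0349 without labelled mutant array 1). Cox4i1 itself differed by 0.01 (95% interval -0.10 to 0.12).

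As reported, no gene of the pathway's other lists was called, apart from those tied to HIF. Over all genes, limma called 7.23%, and 21.8% had an unadjusted p below 0.05. In lists of 4 to 18 genes, a count of 0 cannot be set apart from the share called. Among the assembly factors, limma called 0 of 15 for complex I, 0 of 4 for complex II, 0 of 6 for complex III, 0 of 16 for complex IV and 0 of 5 for complex V and its inhibitor, with 2, 0, 1, 2 and 0 at an unadjusted p below 0.05. Over the alternatives these counts stayed at 0, except for 1 complex I factor called higher with quantile normalization, among the brighter 60% of probe sets and with trend and robust. The medians ran from -0.01 for complex III to 0.08 for complex IV. Of 14 electron carrier genes, including those of ubiquinone synthesis, 0 were called (2 at an unadjusted p below 0.05; median 0.03), of 13 citric acid cycle genes 0 (4; median 0.085), and of 18 genes of mitochondrial content and biogenesis 0 (5; 8 above and 10 below 0). Over the alternatives, the number called higher ran from 0 to 4 for the citric acid cycle, 0 to 2 for mitochondrial content and 0 to 1 for the electron carriers. Quantile normalization called 4, 2 and 1, and array weights called 2, 2 and 0. Among the brighter 60% of probe sets and with trend and robust, 1 mitochondrial content gene was called lower. Most genes on a list of 9 HIF-linked genes act on mitochondria, among them Pdk1, Bnip3, Higd1a and Lonp1. Ndufa4l2 and Cox4i2 are on it too. Of the 9 genes, 8 were called lower in the labelled mutant arrays, against 4.64% of all genes, and the median log2 difference was -0.38. Among them, Pdk1, which inhibits pyruvate dehydrogenase, differed by -1.60 and Bnip3, a mitophagy receptor, by -1.02 (limma adjusted p of 0.000212 and 2.17e-05), and the others called were Egln3, Higd1a, Lonp1, Bnip3l, Ndufa4l2 and Mxi1. The count ran from 5 to 9 over the alternatives.

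Markers of some kidney cell types differed in the same comparison. Over all genes tested, 2.59% were called higher and 4.64% lower. A count of 0 or 1 in lists this small cannot be set apart from those shares. Of 12 proximal tubule markers 3 (Slc13a3, Slc22a8 and Aqp1) were higher in the labelled mutant arrays and 0 lower (median 0.15; mean 12.26 to 12.51 on the labelled mutant and 12.10 to 12.27 on the labelled control arrays). Of 7 thick ascending limb markers 2 were higher (Kcnj1 and Cldn16; median 0.24; 11.72 to 11.81 against 11.45 to 11.63), of 5 distal convoluted tubule markers 2 (Trpm6 and Calb1; median 0.24; 11.30 to 11.62 against 10.92 to 11.20) and of 8 collecting duct markers 1 (Aqp3; median 0.13; 10.11 to 10.28 against 10.01 to 10.24). All 8 endothelial markers (median -0.67; 10.07 to 10.18 against 10.72 to 10.92) and 5 of 6 fibroblast and smooth muscle markers (median -0.64; 9.19 to 9.44 against 9.75 to 10.03) were lower. Podocyte genes gave 1 lower of 4 (Podxl), leukocyte genes 0 of 6 (2 at an unadjusted p below 0.05, and 2 called lower with the replicate block), and Alas2, the only erythroid marker measured, was lower. The tubule marker means lay above the array medians of 7.55 to 7.58. The part of these shifts in the differences of the subunit genes was not tested.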

How the data were processed

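Total RNA of 8 whole-kidney samples was extracted with TRIzol and RNeasy columns, labelled with biotin and hybridised to Affymetrix mouse gene arrays, per the labels' protocols. The deposited value table holds log2 intensities per probe set, and the authors' background correction and normalization are not given in the sources used here; the values ran from 1.92 to 14.66 and array medians from 7.55 to 7.58. The number of arrays, 4 a group, limits the precision. The design text of the series names 4 mutant and 4 control littermates, though no label ties an array to a given mouse. The p-values measure the spread between these samples.

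Of 35556 probe sets, 21789 named 1 gene in the platform annotation, 1621 named several and 12146 none; 21701 of the first kind matched a current RefSeq gene and 88 kept the platform symbol. The probe set with the highest mean stood for each of 19936 genes. The groups were compared by lmFit and eBayes (limma 3.58.1, R 4.3.3) as labelled mutant minus labelled control with no filter, and p-values were adjusted by Benjamini-Hochberg over all genes at a threshold of 0.05. On simulated data with 200 changed genes of 19936 in this comparison, 99% of genes given a log2 change of 1 and 91% of genes given 0.5 passed. Changes smaller than 0.5 were not simulated, and most members differed by less than that. The deviations of same-numbered arrays from their group means had correlations of 0.138, 0.153, 0.295 and 0.175 over genes. Those of differently numbered arrays ran from -0.193 to 0.111. Deviations from group means push such correlations to balance around 0. The numbers come from the sample titles, and whether they mark litters is not given. A fit with the replicate number as a block was run as an alternative. Other alternatives were quantile normalization, median centring, a filter on dim probe sets, array weights, a trended robust eBayes, averaging the probe sets of a gene, adjustment over all probe sets, an adjusted p of 0.1, leaving out each array, and, chosen after seeing the data, leaving out labelled mutant arrays 1 and 2 or 3 and 4.

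The members and gene lists were chosen with earlier results of these data known. Members named with values are those called, the 2 highest and 2 lowest differences and the highest and lowest level of each complex, and alternative forms of a subunit; others are marked in the text. Promoter windows are RefSeq's for GRCm38.p6; a longer palindromic NRF1 motif, searched first, gave lower shares in both sets.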

Additional observations from a re-analysis of the deposited data

Results flagged for a closer look

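A single array stood apart from the other 3 of its group in 9 of the 170 groups of 4 arrays looked at over the members and complex means (5.29%), and chance alone gives about 1 in 20. The test was Dixon's gap against the range. Among the labelled mutant arrays, array 4 was low for Ndufb7, a membrane-arm subunit of complex I, at 9.59 with the others at 9.72 to 9.74. Array 4 was also low for the mean of the 9 complex IV subunits of most tissues, at 12.314. Among the labelled control arrays, array 2 was high for Ndufa8 at 11.44 (others 11.35 to 11.36), for Ndufb3 at 8.73 (8.46 to 8.51) and for the mean of complex I at 10.834. Labelled control array 1 was low for Ndufc1 at 11.32 (11.40 to 11.41). Labelled control array 3 was low for Uqcr10 at 10.71 (10.76 to 10.77) and for Atp5c1 at 11.79 (11.83). Labelled control array 4 was high for the mean of complex III at 11.356.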

How the results depend on the processing

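Against 4 members called as reported, limma called 11 at an adjusted p of 0.1 (11.1% of all genes passed there), 10 after quantile normalization (7.9%), 8 of 78 among the brighter 60% of probe sets, 9 with trend and robust (8.28%), 3 with the replicate number as a block (8.31%) and 0 with adjustment over all probe sets. Leaving out 1 array gave 0 to 3, leaving out labelled mutant arrays 3 and 4 gave 0, and leaving out 1 and 2 gave 4 (Cox6a2, Ndufa11, Ndufs4 and Cox6b2). The last 2 fits were chosen after the values were seen. In Cox6a2, Ndufa11 and Ndufs4, arrays 1 and 2 are the lowest labelled mutant arrays. Leaving them out raises these differences by construction, and nothing is drawn from those calls. The cause of the changes in the counts was not tested. For the fits with arrays left out, the brighter 60% and all probe sets, the share of all genes is not set beside the count. The members called with the block were Ndufs4, Sdhb and Cox6b2. Quantile normalization moved the medians to 0.099 for complex I, 0.155 for II, 0.158 for III, 0.063 for IV and 0.099 for V, that of all members to 0.101, and that of all genes to 0.032. It put 72 of the 79 members above 0, and the cause was not tested. Without 1 array the medians ran from 0.034 to 0.075 for complex I, 0.093 to 0.127 for II, 0.099 to 0.138 for III, 0.012 to 0.038 for IV and 0.026 to 0.054 for V. Of 43 named members not called, 9 passed the threshold of 0.05 under at least 1 alternative, and no named member changed direction while called. Dim probe sets such as that of Cox7b2 limit what can be read, since their differences are compressed towards 0.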
